A study of Mus musculus with 4 samples.

Results

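The 9 genes described here make, break down, export and sense sphingosine-1-phosphate (S1P): the sphingosine kinase genes Sphk1 and Sphk2, the S1P lyase gene Sgpl1, the S1P phosphatase genes Sgpp1 and Sgpp2, the exporter gene Spns2 and the receptor genes S1pr1, S1pr2 and S1pr3. They were taken by symbol from a count table of 55401 Ensembl genes, and all 9 passed the filter on low counts. RNA was sequenced from pancreatic tissue lying beside tumours in mice with pancreatic ductal adenocarcinoma, for which the labels give the cell line Panc02, a mouse pancreatic carcinoma line. One genotype was CRFR1-KO, a conditional knockout of the corticotropin-releasing factor receptor CRFR1, and the other was WT, with 2 libraries of each. Tumour and tissue were common to both genotypes, and the sources used here do not give the cell type or promoter driving the deletion, the age of the mice or any pooling of animals. The series title places SPHK1 signalling downstream of CRFR1 in mast cells, and the comparison asks whether transcripts of the S1P pathway differed between the genotypes.

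S1P is a lipid messenger made when a sphingosine kinase phosphorylates sphingosine inside the cell. It is either dephosphorylated back to sphingosine or cleaved for good by the lyase, and it can leave the cell through a transporter to act on G protein-coupled receptors. In vessels the receptors help to keep the endothelial barrier tight, and a gradient of S1P between blood and tissue guides lymphocytes out of lymphoid organs. Sphingosine kinase activity in activated mast cells is known to feed their migration and mediator release.

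Libraries held between 63495457 and 71203640 counts, and Crhr1, which encodes CRFR1, had a count of 0 in all 4, which gives no check of the genotypes. Levels are counts-per-million (CPM) on scaled library sizes, and 3 counts correspond to between 0.0363 and 0.048 CPM. The 10 acinar markers, led by Ctrb1 and Cela2a, took 39.3% and 40.5% of the counts in CRFR1-KO and 37.8% and 37.3% in WT, so acinar transcripts were the main identified source of RNA in both genotypes. In fibroblast and islet markers WT 1 stood apart from the other 3 libraries. It had 502 CPM summed over 10 fibroblast markers, against 165 to 239 CPM elsewhere. Over 5 islet markers, led by Ins2 and Gcg, it summed to 34.9 CPM, against 203 to 252 CPM elsewhere. Whether the 2 libraries of a genotype are 2 mice is not stated in the labels. The p-values of the gene tests rest on the spread among the 4 libraries, part of which may be technical. They also borrow from the spread of all genes tested. Exact permutation p-values cannot fall below 0.333 with 2 libraries against 2. In bulk tissue, fewer cells of a type and less RNA per cell cannot be told apart.

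Sphk1 and S1pr3 are the members with the largest measured differences between the genotypes, and Sphk2 is the other kinase gene, so the sequence before their annotated starts is shown. The windows are the 250 bases before a RefSeq start on GRCm38.p6, 5′ to 3′ on the gene's strand, in lower case, with matches to 4 short motifs in capitals. The motifs, read on both strands, were AP-1 (TGANTCA), E-box (CACGTG), Sp1 (GGGCGG) and TATA box (TATAAA). Windows with more than 30 bases of annotated exon are described but not printed. The set of RefSeq starts used here held 8 of the 9 genes. S1pr1 was not in this set, which does not mean that RefSeq lacks it.
Sphk1, before the start at 116532444, plus strand, chr11:116532194-116532443: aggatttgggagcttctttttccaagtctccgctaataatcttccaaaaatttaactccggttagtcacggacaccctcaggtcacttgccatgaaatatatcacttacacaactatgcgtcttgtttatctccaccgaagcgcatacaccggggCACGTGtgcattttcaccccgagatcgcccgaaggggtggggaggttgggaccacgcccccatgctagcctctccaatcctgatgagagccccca
Sphk2, before the start at 45715207, minus strand, chr7:45715208-45715457: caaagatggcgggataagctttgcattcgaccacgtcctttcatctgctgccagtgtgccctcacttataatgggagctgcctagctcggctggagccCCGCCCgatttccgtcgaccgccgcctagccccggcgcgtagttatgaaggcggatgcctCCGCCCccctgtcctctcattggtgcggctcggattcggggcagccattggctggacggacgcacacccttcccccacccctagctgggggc
S1pr3, before the start at 51408618, plus strand, chr13:51408368-51408617: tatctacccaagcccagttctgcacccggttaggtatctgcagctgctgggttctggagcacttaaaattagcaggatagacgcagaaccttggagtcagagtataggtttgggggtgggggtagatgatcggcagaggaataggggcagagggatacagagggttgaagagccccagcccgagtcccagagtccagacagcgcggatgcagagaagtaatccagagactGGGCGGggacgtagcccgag
The set held 5 starts for Sphk1, 2 for Sphk2 and 1 for S1pr3, and 3 windows were read for Sphk1. The printed Sphk1 window held an E-box 95 bases before the start, a motif found in 6.02% of 32817 such windows. Of the other Sphk1 windows read, the one before 116531100 held a TATA box 31 bases before the start (12.4% of windows) and the one before 116531837 held the AP-1 letters TGAGTCA 50 bases before it (6.75% of windows). Both Sphk2 windows and the S1pr3 window held the Sp1 letters, as did 32.7% of windows. GC content was 51.6% to 57.6% over the 3 Sphk1 windows and 64.0% and 67.6% over the Sphk2 windows, against a median of 52.4%. Counts per gene do not tell which start was used, and a match is a description of the letters only.

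Among the kinase genes, Sphk1 was measured lower in CRFR1-KO and Sphk2 had nearly equal measured levels in both genotypes. Sphk1 (ENSMUSG00000061878, chromosome 11, 116530925 to 116536674 on GRCm38, 16 annotated transcripts) encodes a mostly cytosolic sphingosine kinase that is recruited to the plasma membrane when it is phosphorylated. It had 124 and 146 counts in CRFR1-KO and 336 and 374 in WT, or 1.98 and 2.23 CPM against 4.06 and 5.71 CPM. Both CRFR1-KO libraries lay below both WT libraries, and the 2 CRFR1-KO values were closer together than the 2 WT values. The means were 2.11 ± 0.174 CPM in CRFR1-KO and 4.89 ± 1.17 CPM in WT (SD, n = 2 each), and the fitted level in CRFR1-KO was 0.432 of that in WT, with a 95% confidence interval of 0.277 to 0.674 (log2 fold change -1.21, SE 0.27). The unadjusted p was 0.00286 in edgeR, the 62nd smallest of 15131 genes tested. After adjustment over all genes it did not pass (edgeR adjusted p = 0.682). At least as large a fold toward lower was measured for 4.06% of all genes tested.

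Sphk2 (ENSMUSG00000057342, chromosome 7, 45709467 to 45718002 on GRCm38) encodes the second kinase, found largely in the nucleus, endoplasmic reticulum and mitochondria. It stood at 9.42 and 8.97 CPM in CRFR1-KO and 8.93 and 9.21 CPM in WT, with the libraries of both genotypes interleaved. The fold was 1.01, with a 95% interval of 0.771 to 1.33 (edgeR adjusted p = 0.9999, log2 fold change 0.02, SE 0.17). Exons of Sphk2 overlap those of Rpl18 and Dbp on the opposite strand, and Rpl18, a ribosomal protein gene, had 7676 and 6201 counts in CRFR1-KO and 7326 and 9838 in WT. The sources used here do not say whether counting used the strand, and a share of Rpl18 reads in the Sphk2 count was not tested.

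Within each library the kinase genes can be set against each other without any scaling of libraries. Per kilobase of exon, the ratio of Sphk1 to Sphk2 was 0.183 and 0.217 in CRFR1-KO and 0.397 and 0.540 in WT. On the log2 scale the ratio averaged -2.33 in CRFR1-KO and -1.11 in WT, a difference of -1.22. The two-sided exact permutation p was 0.333, the smallest that 2 libraries against 2 allow, and 0.583 after Benjamini-Hochberg adjustment over the 7 ratios and shares tested.

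**Figure D1:**
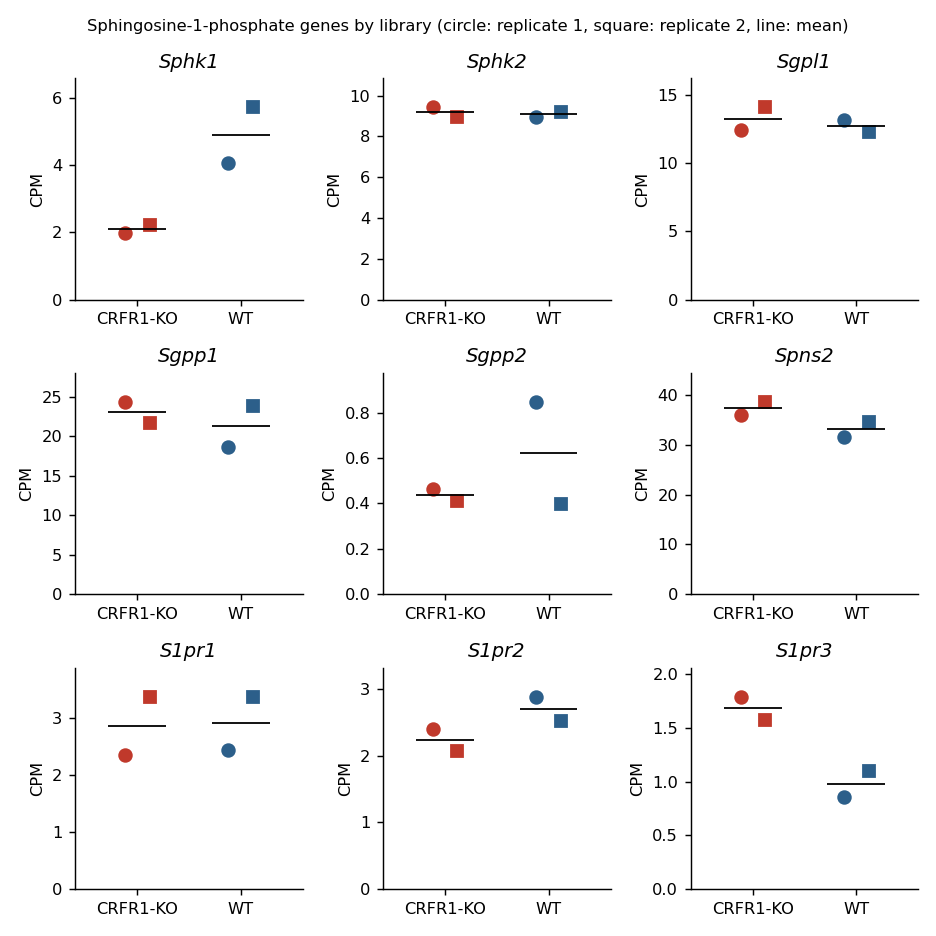
Level in CPM (vertical axes, each from 0) of the 9 genes in the 2 CRFR1-KO and 2 WT libraries, with circles for replicate 1, squares for replicate 2 and lines for means. Sphk1 lies at 1.98 and 2.23 CPM in CRFR1-KO against 4.06 and 5.71 CPM in WT, and S1pr3 at 1.79 and 1.57 CPM in CRFR1-KO against 0.859 and 1.10 CPM in WT.

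Of the genes for the removal of S1P, Sgpl1 and Sgpp1 had measured levels that differed little between the genotypes. Sgpl1 (ENSMUSG00000020097, chromosome 10, 61098642 to 61147703) encodes the lyase that splits S1P irreversibly into a fatty aldehyde and phosphoethanolamine. It stood at 12.4 and 14.1 CPM in CRFR1-KO and 13.2 and 12.3 CPM in WT, with a fold of 1.04 (95% interval 0.791 to 1.36). Sgpp1 (ENSMUSG00000021054, chromosome 12, 75714249 to 75735729), encoding a phosphatase of the endoplasmic reticulum that returns S1P to sphingosine, stood at 24.3 and 21.7 CPM in CRFR1-KO and 18.7 and 23.8 CPM in WT, with a fold of 1.08 (0.799 to 1.47). The libraries of the genotypes overlapped for both genes.

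Sgpp2 (ENSMUSG00000032908, chromosome 1, 78310345 to 78420289), encoding the related second phosphatase, was the lowest of the 9 genes per kilobase of exon. It had 29 and 27 counts in CRFR1-KO and 70 and 26 in WT, so that WT 1 alone was high. Its fold of 0.703 had an interval of 0.238 to 2.08, and its log2 fold change of -0.51 turned to 0.14 without WT 1. Exons of Sgpp2 overlap those of Farsb on the other strand, which had 463 and 731 counts in CRFR1-KO and 708 and 654 in WT.

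Spns2 (ENSMUSG00000040447, chromosome 11, 72451638 to 72489904) encodes the transporter that exports S1P from endothelial cells, and it was the most abundant of the 9 genes. It stood at 36.1 and 38.6 CPM in CRFR1-KO and 31.6 and 34.5 CPM in WT. The CRFR1-KO libraries lay above the WT libraries, though by little, at a fold of 1.13 (95% interval 0.862 to 1.48, edgeR unadjusted p = 0.323). Mybbp1a overlaps Spns2 exons on the other strand and stood at 18.2 CPM in CRFR1-KO and 14.9 CPM in WT on average. Per kilobase of exon the ratio of Spns2 to Sphk1 was 21.3 and 20.2 in CRFR1-KO against 9.09 and 7.07 in WT (exact permutation p = 0.333, adjusted 0.583), a difference of 1.37 on the log2 scale.

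Of the receptor genes, S1pr3 was measured higher in CRFR1-KO, S1pr2 slightly lower and S1pr1 at nearly equal levels in both genotypes. S1pr1 (ENSMUSG00000045092, chromosome 3, 115710433 to 115715072) encodes the Gi-coupled receptor of endothelium and lymphocytes. It had 2.35 and 3.38 CPM in CRFR1-KO and 2.44 and 3.38 CPM in WT. The spread lay within each genotype, between replicate 1 and replicate 2, and the fold was 0.986 (95% interval 0.594 to 1.63). S1pr2 (ENSMUSG00000043895, chromosome 9, 20962361 to 20976781), encoding a receptor that restrains cell migration, had 2.40 and 2.08 CPM in CRFR1-KO and 2.89 and 2.52 CPM in WT. Both CRFR1-KO libraries were lower, with a fold of 0.827 (0.525 to 1.30, edgeR unadjusted p = 0.357).

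S1pr3 (ENSMUSG00000067586, chromosome 13, 51408639 to 51422797) encodes a receptor that couples to several classes of G protein and is known in vascular muscle, endothelium and, in mice, in sensory neurons. It had 112 and 103 counts in CRFR1-KO and 71 and 72 in WT, or 1.79 and 1.57 CPM against 0.859 and 1.10 CPM. Both CRFR1-KO libraries lay above both WT libraries. The fold was 1.72 with a 95% interval of 0.932 to 3.17 (log2 fold change 0.78, SE 0.37), which includes no difference, and the gene did not pass in edgeR (unadjusted p = 0.0746, adjusted p = 0.9999). At least as large a fold toward higher was measured for 4.9% of all genes tested.

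The mix of the 3 receptor transcripts, taken per kilobase of exon, was led by S1pr1 in every library. That lead depends on the lengths used. In CPM, S1pr2 lay above S1pr1 in CRFR1-KO 1 (2.40 against 2.35) and WT 1 (2.89 against 2.44), and below it in CRFR1-KO 2 and WT 2. Per kilobase of exon, S1pr1 made up 52.4% and 64.4% of the receptor sum in CRFR1-KO and 59.1% and 66.3% in WT. S1pr3 made up 27.2% and 20.5% in CRFR1-KO and 14.2% and 14.7% in WT, and S1pr2 20.4% and 15.1% against 26.7% and 18.9%. Both CRFR1-KO libraries thus had a higher share of S1pr3 than the WT libraries, by 9.39 percentage points on average, while the shares of S1pr1 and S1pr2 overlapped between the genotypes. Its exact permutation p was 0.333 (adjusted 0.583), as it was for the ratio of S1pr3 to S1pr1, which was 0.520 and 0.318 in CRFR1-KO against 0.240 and 0.222 in WT. Without CRFR1-KO 1 the difference in the S1pr3 share was 6.02 percentage points, and that in the log2 ratio of S1pr3 to S1pr1 was 0.46, against 0.82 with all libraries.

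**Figure D2:**
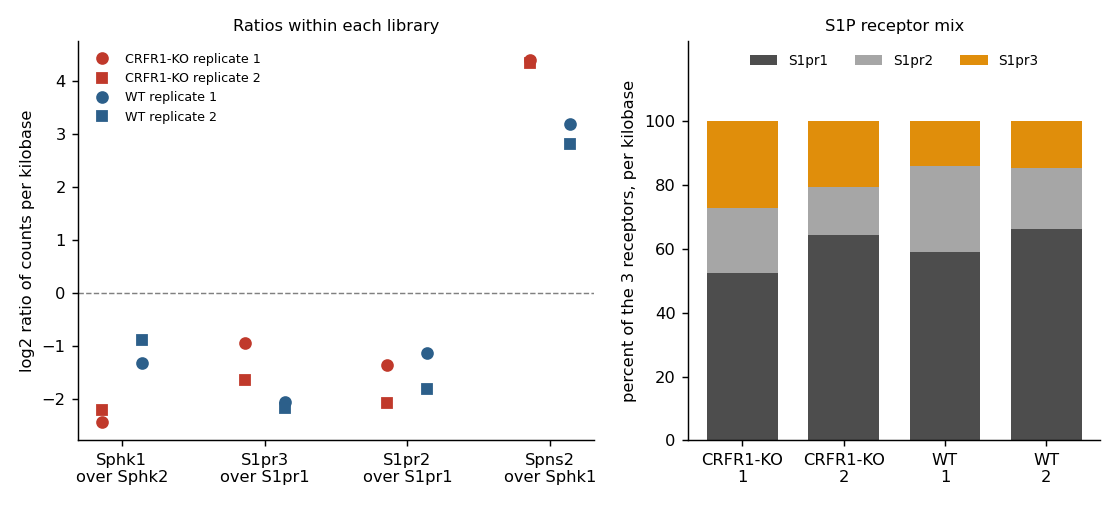
Left, log2 ratios of counts per exon kilobase between pairs of genes in each library. Right, stacked shares of S1pr1, S1pr2 and S1pr3 in percent of their per-kilobase sum. The Sphk1 to Sphk2 ratio is lower and the S1pr3 share higher in both CRFR1-KO libraries, the share at 27.2% and 20.5% against 14.2% and 14.7% in WT.

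Read against the whole transcriptome, 0 of the 9 genes passed the edgeR threshold of 0.05 adjusted over all genes, where 0.0264% of all genes tested passed. DESeq2 and limma-voom likewise called 0 of the 9, where DESeq2 called 0.377% and limma-voom 0.0% of all genes. In edgeR 1 of the 9, Sphk1, had an unadjusted p under 0.05, against 4.86% of all genes. By direction, that was 1 of 9 lower in CRFR1-KO, against 3.15% of all genes, and 0 of 9 higher, against 1.71%. The libraries of the genotypes did not overlap for 4 of the 9, with Sphk1 and S1pr2 lower and Spns2 and S1pr3 higher in CRFR1-KO, against 33.5% of all genes, 16.9% lower and 16.6% higher. These 2 of 9 lower and 2 of 9 higher rest on so few genes that they are given as counts only. The median log2 fold change of the 9 was 0.02, with 5 higher and 4 lower, and that of all genes tested was -0.01. Scaled by library totals, where the median of all genes was -0.13, 3 of the 9 were higher and 6 lower.

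**Figure D3:**
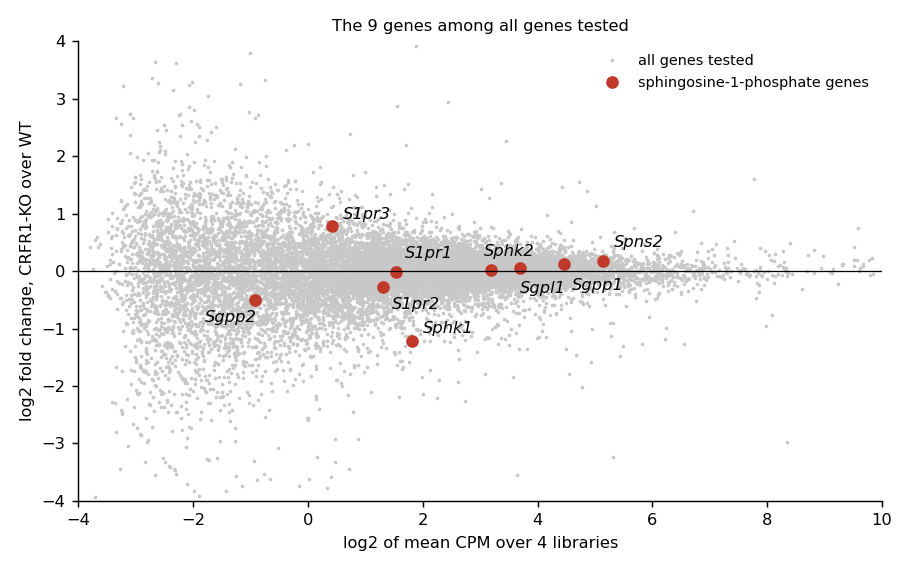
Log2 fold change of CRFR1-KO over WT (vertical axis) against the log2 of the mean CPM over the 4 libraries (horizontal axis) for all genes tested in grey and the 9 genes in red, with 101 genes outside the axes. Sphk1 at -1.21 and S1pr3 at 0.78 lie farthest from 0 among the 9 genes.

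The 9 transcripts spanned a wide range of levels per kilobase of exon, and Sphk1 and S1pr3 took different places in the order in the 2 genotypes. Averaged over the 4 libraries, Spns2 came first at 8.62 CPM per kilobase, then Sgpp1 at 3.91, Sphk2 at 2.20, Sgpl1 at 2.11, S1pr1 at 0.948, Sphk1 at 0.733, S1pr2 at 0.310, S1pr3 at 0.298 and Sgpp2 at 0.132. Over the 4 libraries the ranges of Sphk2 and Sgpl1 overlapped, as did those of S1pr1 and Sphk1, of S1pr2 and S1pr3, and of S1pr3 and Sgpp2. Sphk1 stood at 0.416 and 0.467 CPM per kilobase in CRFR1-KO, below S1pr1 in the same libraries at 0.772 and 1.11. In WT it stood at 0.851 and 1.20, above S1pr1 at 0.802 and 1.11. S1pr3 stood at 0.402 and 0.353 in CRFR1-KO, above S1pr2 at 0.301 and 0.261. In WT it stood at 0.192 and 0.246, below S1pr2 at 0.363 and 0.316. The change of place between S1pr3 and S1pr2 depends on exon length, 4.463 kb for S1pr3 and 7.971 kb for S1pr2. In CPM, S1pr3 lay below S1pr2 in every library.

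**Figure D4:**
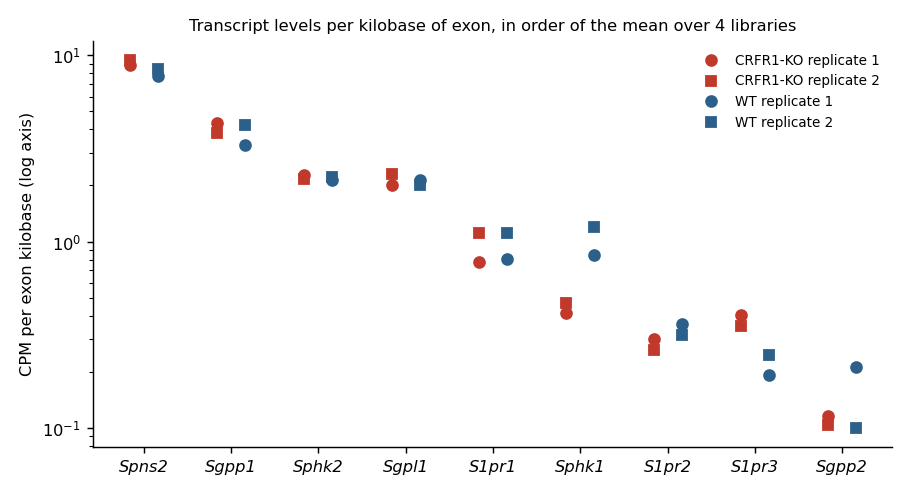
CPM per kilobase of exon (log axis) of the 9 genes in each library, in order of the mean over the 4 libraries, with CRFR1-KO in red and WT in blue. Spns2 leads at 8.62 and Sgpp2 is last at 0.132 on average. On this per-kilobase scale Sphk1 changes place with S1pr1, and S1pr3 with S1pr2, between the genotypes.

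Other genes that supply sphingosine or handle S1P were mostly measured at like levels. Of a list of 23, 20 were tested, 9 higher and 11 lower in CRFR1-KO, and 0 passed in edgeR, DESeq2 or limma-voom, where 0.0264%, 0.377% and 0.0% of all genes did. At an unadjusted p under 0.05 in edgeR there was 1 of 20, near the 4.86% of all genes. The libraries of the genotypes did not overlap for 4 of 20 lower and 2 of 20 higher, near the shares of 16.9% and 16.6% of all genes. Their median log2 fold change was -0.03, beside -0.01 over all genes tested, and scaled by library totals 5 were higher and 15 lower. The 4 with the smallest p are given by value. The cholesterol and phospholipid transporter gene Abca1, whose product is also linked to S1P release, had 627 and 371 counts in CRFR1-KO and 1127 and 975 in WT (log2 fold change -0.86, SE 0.27, edgeR unadjusted p = 0.0154, adjusted p = 0.941). The alkaline ceramidase genes Acer3 and Acer2, which release sphingosine from ceramide, had log2 fold changes of -0.71 and -0.71 with both CRFR1-KO libraries below both WT libraries. Ormdl3, encoding a brake on the first step of sphingolipid synthesis, stood at 0.22 with both CRFR1-KO libraries higher. Adjusted over all genes, none of these 4 passed in edgeR.

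The remaining S1P receptor genes and carriers had few counts or none. S1pr4, a receptor gene of blood cells, had 8 and 16 counts in CRFR1-KO and 18 and 8 in WT. S1pr5, known in natural killer cells and oligodendrocytes, had 0 counts in both CRFR1-KO libraries and 11 and 0 in WT. Apom, encoding the lipoprotein that carries S1P in plasma, had 0 counts in all 4 libraries. Mfsd2b, encoding the S1P exporter of red cells and platelets, had 58 and 20 counts in CRFR1-KO and 31 and 61 in WT.

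Genes for the G proteins, exchange factors, kinases and arrestins that act below the receptors had small measured differences between the genotypes. All 17 were tested, 8 higher and 9 lower, at a median of -0.01, and 0 passed in edgeR, DESeq2 or limma-voom, where 0.0264%, 0.377% and 0.0% of all genes did. At an unadjusted p under 0.05 in edgeR there were 0 of 17, against 4.86% of all genes. Scaled by library totals, 3 were higher and 14 lower. The libraries of the genotypes did not overlap for 3 of 17 lower and 3 of 17 higher, near the shares of 16.9% and 16.6% of all genes. The log2 fold changes of the 17 lay between -0.22 and 0.40. The smallest p belonged to Arhgef11, a guanine nucleotide exchange factor gene (log2 fold change 0.40, SE 0.18, edgeR unadjusted p = 0.0625), followed by the arrestin gene Arrb1 (0.23, SE 0.17). RNA levels do not measure the activity of any of these proteins, nor the amount of S1P.

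Fibroblast and macrophage markers were measured lower in CRFR1-KO along with Sphk1, and their part in its difference was not tested. Both CRFR1-KO libraries lay below both WT libraries for 9 of 10 fibroblast markers, where 16.9% of all genes did so. Their summed level was 165 and 184 CPM in CRFR1-KO and 502 and 239 CPM in WT, with Col3a1 and Dcn the most abundant. The same held for 6 of 9 macrophage markers, led by Lyz2 and Csf1r, with sums of 46.4 and 75.3 CPM against 128 and 95.5 CPM. Of 6 lymphatic endothelial markers, led by Prox1 and Ccl21a, 1 lay lower in both CRFR1-KO libraries, near the 16.9% of all genes, and by fold 2 were higher and 4 lower. That 1 was Prox1, which had 118 and 90 counts in CRFR1-KO and 329 and 309 in WT, and the list summed to 4.77 and 9.29 CPM against 9.50 and 10.7 CPM. No marker of these 3 lists was at 0 in all libraries.

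Markers of blood endothelium and of vessel muscle, where S1pr1 and S1pr3 are known to be expressed, overlapped between the genotypes in sum. The 12 endothelial markers summed to 75.8 and 86.6 CPM in CRFR1-KO and 82.7 and 75.6 CPM in WT, with 4 of 12 higher and 1 of 12 lower in both CRFR1-KO libraries, where 16.6% of all genes were higher and 16.9% lower. The 9 mural markers, led by Rgs5 and Pdgfrb, summed to 31.7 and 41.9 CPM against 41.4 and 43.6 CPM, with 2 of 9 lower in both CRFR1-KO libraries and 0 higher. All 8 mural markers tested had a log2 fold change below 0, from -0.865 to -0.0049, at a median of -0.25. Over all genes, 7693 of 15131 lay below 0, at a median of -0.01. Of the 8 mural markers, 0 had an unadjusted p under 0.05 in edgeR. Per kilobase of exon, Spns2 at 8.62 CPM stood between the endothelial markers Plvap at 11.1 and Pecam1 at 2.43. Of 10 mast cell markers, 7 were at 0 in all libraries, among them Cma1, Mcpt4, Tpsb2, Tpsab1 and Fcer1a. The list summed to 14.5 and 10.8 CPM in CRFR1-KO and 11.8 and 13.97 CPM in WT, nearly all of it Kit, which other cell types also express, at 13.98 and 10.7 CPM against 11.4 and 13.7 CPM. Cpa3 had 33 and 4 counts in CRFR1-KO and 39 and 8 in WT. Of 8 lymphocyte markers, led by Cd4 and Nkg7, Cd3d and Ms4a1 were at 0 in all libraries, and the list summed to 0.320 and 1.04 CPM in CRFR1-KO and 0.968 and 1.44 CPM in WT. The erythroid list, led by Hba-a1 and Hbb-bs, summed to 23.6 and 62.7 CPM against 56.2 and 19.5 CPM. The adipocyte list, led by Fabp4 and Cidec, summed to 7.81 and 9.30 CPM against 9.18 and 8.01 CPM. Nearly all of that was Fabp4, at 7.81 and 9.18 CPM in CRFR1-KO and 9.08 and 7.88 CPM in WT. Cidec had 0 and 8 counts in CRFR1-KO and 4 and 0 in WT, and Lep was at 0 throughout.

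The genes with the pattern most like Sphk1 over the 4 libraries were Scara5, Ces1d and Gdf10. Likeness was the Euclidean distance between centred log2(CPM + 0.5) profiles among 8662 named genes with a mean of at least 2 CPM. Genes with a Gm, Rik or accession-type symbol, or with no symbol, were left out. The distances were 0.142, 0.146 and 0.198, and 4 of the 8662 genes lay within 0.25. Scara5, encoding a scavenger receptor, averaged 3.11 CPM in CRFR1-KO and 7.22 CPM in WT. Ces1d, a carboxylesterase gene, averaged 6.11 CPM in CRFR1-KO and 12.3 CPM in WT, and Gdf10, encoding a growth factor of the TGF-beta family, 3.62 and 8.06 CPM. For S1pr3 they were Med1, H2-Aa and Tnrc6b at distances of 0.0709, 0.0970 and 0.105, with 99 genes within 0.25. For S1pr1 they were Nle1, D5Ertd579e and Maoa at 0.0478, 0.0501 and 0.0569, with 436 genes within 0.25. A likeness over 4 libraries is a description of these libraries.

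In each of 14 alternatives Sphk1 and S1pr2 were lower and S1pr3 and Spns2 higher. None of them passed the adjusted threshold in the 10 other fits of all libraries. Their libraries did not overlap between the genotypes, so leaving out 1 library could hardly reverse these directions. The other fits reuse the same libraries, so the kept directions are no independent evidence. Over the alternatives the log2 fold change ran from -0.42 to -0.16 for S1pr2 and from 0.06 to 0.24 for Spns2. For Sphk1 the log2 fold change stood at -1.44 when WT 1 was left out and at -0.94 without WT 2. That of S1pr3 was 0.61 without WT 1 and 0.97 without WT 2. S1pr1 went either way, at -0.30 without CRFR1-KO 2 and 0.23 without WT 2.

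**Figure D5:**
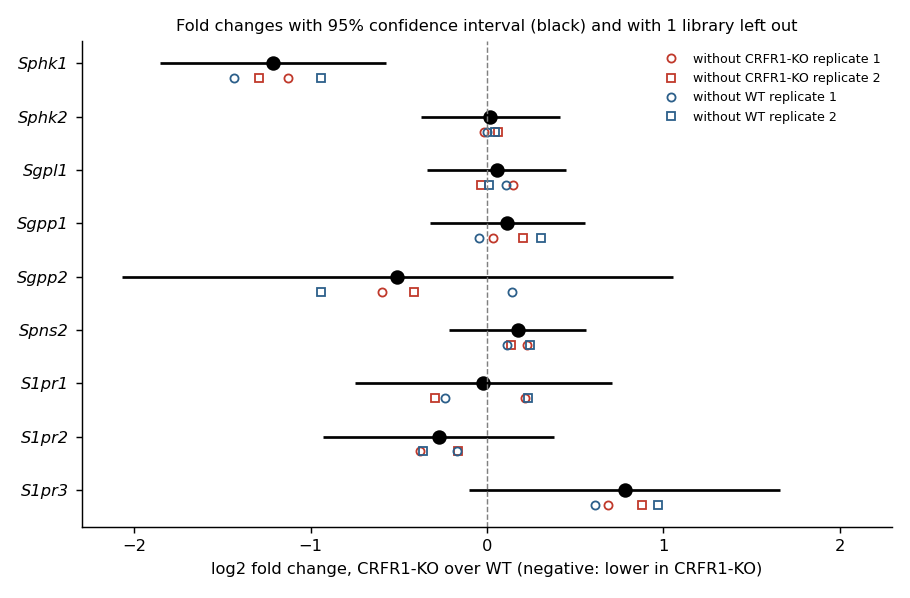
Log2 fold change of CRFR1-KO over WT (horizontal axis) with its 95% confidence interval in black, and with each library left out as open symbols. All estimates for Sphk1 lie between -1.44 and -0.94, and those for Sphk2, Sgpl1, Sgpp1, Sgpp2 and S1pr1 fall on both sides of 0.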

How the data were processed

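Messenger RNA was sequenced in 4 mouse libraries, 2 CRFR1-KO and 2 WT. Per the labels' protocols, mRNA was purified on oligo(dT) beads, and libraries kept strand through dUTP in the second strand, digested before PCR. The deposited table holds whole-number counts per Ensembl gene, without normalization. FastQC, DESeq2 and edgeR were used per the submitters' processing notes. The sources used here do not give the aligner, counting program, strand setting, annotation or genome build. Counts of 4 were more frequent than their neighbours (913 genes in WT 1, against 349 with 3 and 242 with 5), which leaves unclear what 1 count in the deposited table represents. Floors cover counting error only. Of 55401 genes, 55141 had a symbol in GENCODE M21 (GRCm38), which also gave positions and exon lengths. None of the 9 genes shared exon bases with another gene on its strand.

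Tests used the quasi-likelihood F test of edgeR 4.0.16 (R 4.3.3) with genotype as sole term, TMM scaling and the default filter, and Benjamini-Hochberg adjustment over 15131 genes at 0.05. SEs and 95% intervals were derived from the F statistic. The members and lists were chosen with earlier results of these data known. Named genes were the 9 members, those of each S1P list with the smallest p, 4 receptor and carrier genes, the 2 most abundant of each marker list reported and the 3 nearest patterns. One marker list is not reported here. Alternatives included DESeq2 1.42.0, limma-voom (limma 3.58.1), other scalings and filters, a block for replicate number, and each library left out in turn. The main fit used no block, because the labels do not say that equal replicate numbers share an animal or batch. Equal replicate numbers did not deviate together (correlation -0.0662).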

Additional observations from a re-analysis of the deposited data

How the results depend on the processing

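Of the 9 genes, 0 passed in all 10 other fits and in the 4 fits with a library left out, and likewise 0 of either S1P list. The number of all genes called was 57 with the DESeq2 Wald test, 0 with limma-voom, 0 with exon-sharing models summed and 7 with the replicate block, against 4, and 0 to 69 with a library left out. With the replicate block Sphk1 stood at -1.20 on the log2 scale (edgeR adjusted p = 0.761), and the block changed no call among the 9 genes. The adjusted p of Sphk1 lay between 0.111 and 1.0 over the 14 alternatives. Sphk2 and Sgpl1 turned to -0.11 and -0.0729 on library totals, which moved the median of all genes to -0.13, and S1pr1 to 0.00099 with limma-voom. With a library left out the log2 fold change ran from -0.0150 to 0.0644 for Sphk2, -0.0319 to 0.146 for Sgpl1, -0.0474 to 0.304 for Sgpp1, -0.94 to 0.14 for Sgpp2 and -0.30 to 0.23 for S1pr1. The difference in the log2 ratio of S1pr2 to S1pr1 then ran from -0.61 to 0.12, and that in the S1pr1 share of receptors from -10.4 to 1.67 percentage points. The cause of these turns was not tested. Sgpp2 was not tested when at least 1 CPM in 2 libraries was required or counts were divided by 4. Fits without a library assume that the lone library varies like the others.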
